A study of Homo sapiens with 6 samples.

Results

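The 10 genes described here encode transcription factors of the urothelium and of other lining epithelia: TP63, GATA3, PPARG, FOXA1, GRHL1, GRHL2, GRHL3, ELF3, OVOL1 and KLF5. They were taken by gene symbol from a table of 20289 genes, and all 10 symbols were present. RNA was sequenced from 6 libraries labelled T24, an established human bladder cancer cell line, grown in RPMI medium with fetal bovine serum. In the 3 libraries labelled Vector, of control genotype, cells had received vector plasmid, and in the 3 labelled LINC00665 they had received pcDNA3.1 carrying the long intergenic non-coding RNA LINC00665. Plasmids were delivered by lipofection, and neither a selection of transfected cells nor the time of harvest is given in the sources used here. The series names 3 independent experiments as the origin of its result. The single comparison asks which RNAs differ when LINC00665 is overexpressed, with lymph node metastasis of bladder cancer as the stated interest.

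A check for mixed-up samples was made first, and 3 of the 6 libraries failed to match the cell line named on them. Without those 3 libraries no comparison between labels would remain, so no value could be recomputed without them. Groups are therefore called by their labels, and a difference in line and a difference in plasmid cannot be told apart in any value below. The level of LINC00665 itself was not analysed here, so the overexpression was not checked. Expected counts summed to between 17289788 and 22725687 per library. Log2 CPM correlated across genes at 0.967 to 0.982 within the Vector label, 0.985 to 0.99 within the LINC00665 label and 0.659 to 0.68 between labels.

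Lining epithelia are built and kept by a small set of transcription factors that act together on cell adhesion, barrier and differentiation genes. In the urothelium, TP63 marks basal and intermediate cells, while PPARG, GATA3, FOXA1 and ELF3 drive the luminal programme of uroplakins and simple keratins. Grainyhead-like factors control junction genes, OVOL factors repress mesenchymal regulators such as ZEB1, and KLF5 acts in proliferating epithelial cells. Loss or gain of these factors is used to describe basal and luminal classes of bladder cancer.

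All 10 factors were higher in the libraries labelled LINC00665, and in no case did the groups overlap. Summed over the 10 genes, the libraries labelled Vector held 25.9, 27.7 and 33.0 CPM (counts scaled to library size by edgeR's TMM factors), and those labelled LINC00665 held 1380, 1510 and 1220 CPM. In raw counts the sum was 499 to 638 per library under the former label and 22705 to 29600 under the latter. In bulk RNA, a change in the number of cells that express a gene and a change in RNA per cell cannot be told apart. All 10 passed the filter on low counts (about 0.511 CPM in at least 3 libraries), and edgeR's quasi-likelihood test called all 10 higher (adjusted p of 0.05 or less, Benjamini-Hochberg over all tested genes). Of all 13552 genes tested, 34.2% were called higher and 29.3% lower (63.5% in all), so a call alone is common between these labels. The groups did not overlap for 70.2% of tested genes, and for 37.9% the LINC00665 label was the one above. The smallest log2 fold change of the 10 was 3.05 (GRHL1), and 13.1% of tested genes were called higher with at least that value. The median log2 fold change was 8.02 over the 10, or 6.51 with genes at 0 counts set to their bound, beside 0.03 over all tested genes.

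The filter on low counts bears on these values. PPARG, FOXA1, GRHL1, ELF3 and KLF5, 5 of the 10, would have passed it under the Vector label alone. TP63, GATA3, GRHL2, GRHL3 and OVOL1 passed through the LINC00665 label alone, so they could differ only upwards. Over the 5 that passed under each label the median log2 fold change was 4.97. Among the 11398 genes of all kinds that passed under each label, 3067 (26.9%) were higher. The p-values measure the spread between these libraries, and an exact two-sided permutation test of 3 against 3 libraries could not go below 0.1.

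**Figure D1:**
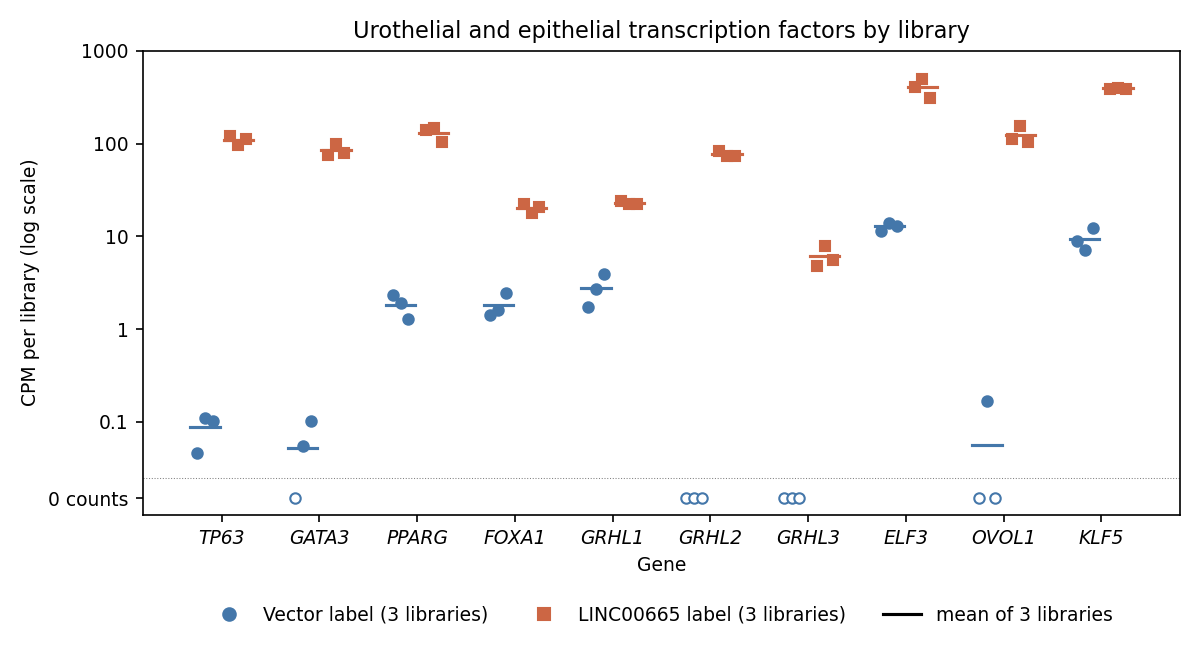
CPM of the 10 factors (log axis) in each library labelled Vector (circles) or LINC00665 (squares), with horizontal lines at the arithmetic mean of 3 libraries and open circles for libraries at 0 counts. Every square lies above every circle of the same gene, and GRHL2 and GRHL3 had 0 counts in all 3 libraries labelled Vector.

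Under the Vector label GRHL3 had 0 counts, TP63 and GATA3 a few, and PPARG, GRHL1 and KLF5 enough to pass the filter. Sequences upstream of these 6 genes are printed side by side. Each is the 250 bases before a start site in RefSeq (GRCh38.p14), on the plus strand, and overlaps no exon of GENCODE 29. Capitals mark matches on either strand to 6 motifs: for GATA factors AGATAA or its variant TGATAA, for ETS factors AGGAAG or its variant CGGAAG, for FOX factors TGTTTAC or its variant TGTTTGC, for grainyhead factors AACCNGTT, the E-box of SNAI and ZEB factors CACCTG, and the core promoter element TATAAA. TP63 is shown at chr3:189631139-189631388, GATA3 at chr10:8045083-8045332, PPARG at chr3:12287118-12287367, GRHL1 at chr2:9951443-9951692, GRHL3 at chr1:24322790-24323039 and KLF5 at chr13:73054726-73054975.
TP63: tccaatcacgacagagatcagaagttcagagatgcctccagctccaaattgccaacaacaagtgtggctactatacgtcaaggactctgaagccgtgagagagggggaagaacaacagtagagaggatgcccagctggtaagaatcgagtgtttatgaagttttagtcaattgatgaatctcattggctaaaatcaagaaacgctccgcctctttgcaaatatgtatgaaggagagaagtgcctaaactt
GATA3: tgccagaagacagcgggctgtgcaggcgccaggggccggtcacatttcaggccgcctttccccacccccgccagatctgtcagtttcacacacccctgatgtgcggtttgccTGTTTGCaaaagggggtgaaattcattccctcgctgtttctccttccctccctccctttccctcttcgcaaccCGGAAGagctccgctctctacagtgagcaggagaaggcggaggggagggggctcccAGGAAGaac
PPARG: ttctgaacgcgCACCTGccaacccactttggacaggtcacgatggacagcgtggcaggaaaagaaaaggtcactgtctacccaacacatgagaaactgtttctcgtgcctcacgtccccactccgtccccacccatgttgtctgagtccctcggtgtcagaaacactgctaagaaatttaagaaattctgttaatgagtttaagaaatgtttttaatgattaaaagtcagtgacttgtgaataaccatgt
GRHL1: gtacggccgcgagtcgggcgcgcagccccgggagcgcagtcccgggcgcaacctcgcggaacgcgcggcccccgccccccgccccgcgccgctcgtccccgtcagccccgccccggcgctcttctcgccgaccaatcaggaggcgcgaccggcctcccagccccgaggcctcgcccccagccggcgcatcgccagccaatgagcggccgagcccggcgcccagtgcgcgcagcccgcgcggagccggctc
GRHL3: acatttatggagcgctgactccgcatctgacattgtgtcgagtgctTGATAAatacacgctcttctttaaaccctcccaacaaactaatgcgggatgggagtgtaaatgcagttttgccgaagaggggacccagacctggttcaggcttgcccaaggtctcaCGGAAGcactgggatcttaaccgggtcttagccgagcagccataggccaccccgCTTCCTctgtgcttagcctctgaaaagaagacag
KLF5: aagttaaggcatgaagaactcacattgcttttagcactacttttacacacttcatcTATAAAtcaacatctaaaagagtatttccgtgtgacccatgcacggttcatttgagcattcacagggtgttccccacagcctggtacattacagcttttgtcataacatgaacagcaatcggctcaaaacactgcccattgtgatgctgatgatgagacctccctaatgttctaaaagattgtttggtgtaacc

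The windows differed in CpG content. The GRHL1 window held 45 CpG dinucleotides, above 99.4% of 34961 upstream windows of the same length from 27195 genes, whose median was 11. KLF5 held 3, TP63 6, PPARG 8, GRHL3 10 and GATA3 11. Other start sites of a gene could differ: another exon-free GATA3 window held 16 CpG, and another exon-free PPARG window held 3 CpG and 1 GATA match. Among windows that overlap an exon, the second of KLF5 held 27 CpG and no TATAAA, and a GATA3 window held 30 CpG. A PPARG window that overlaps an exon, at chr3:12301725-12301974, held 0 CpG and 1 match each for GATA, ETS and grainyhead factors and the E-box. The GATA3 window held 2 ETS matches and 1 FOX match, the GRHL3 window 2 ETS matches and 1 GATA match, the KLF5 window 1 TATAAA, and the PPARG window 1 E-box, the motif bound by SNAI and ZEB repressors. TP63 and GRHL1 held none of the 6 motifs. Of all windows, 40.8% held an ETS match, 6.08% a FOX match, 14.6% a GATA match, 17.5% an E-box, 10.7% TATAAA and 1.49% AACCNGTT. These are matches of letters only, and which start site the libraries used was not measured. In the set of RefSeq start sites used here, 8 of the 10 genes had a window, with 20 start sites in all. GATA3 and PPARG had 6 each, and the TP63 entry was the upstream start, so the values per gene cannot separate the long and short N-terminal forms of TP63.

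The basal factor TP63 (ENSG00000073282, chr3:189631416-189897279, plus strand), a factor that keeps basal cells of stratified and transitional epithelia, was nearly absent under the Vector label. Its counts there were 1, 2 and 2 (0.0466, 0.111 and 0.103 CPM), against 2611, 1812 and 2108 (121, 95.2 and 113 CPM) under the LINC00665 label. Its 5 Vector counts in all give a ratio of 1300, with an exact 95% counting interval of 556 to 4000. The log2 fold change was 10.23 (edgeR SE 0.28 and adjusted p = 1e-07). Counting intervals cover counting error only, since reads carry no molecular identifiers. Its relative TP73 was at 24.6 ± 6.69 and 23.3 ± 2.33 CPM (SD, n = 3 per label, as for every ± value of CPM below). TP73 did not pass the test (-0.08 in log2, adjusted p = 0.77, edgeR).

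GATA3, PPARG and FOXA1 belong to the luminal programme, and the first of these was again at the edge of detection under the Vector label. GATA3 (ENSG00000107485, chr10:8045378-8075203, plus strand), a zinc finger factor of luminal urothelium, breast and T cells, had 0, 1 and 2 counts in the libraries labelled Vector. Under the LINC00665 label it had 1618, 1894 and 1483 counts, which is 75.3, 99.5 and 79.8 CPM. The ratio was 1660 (counting interval 566 to 8030), and edgeR gave a log2 fold change of 10.53 (SE 0.40 and adjusted p = 3.2e-07). GATA2, a blood and endothelial relative, rose from 6.82 ± 2.48 to 38.5 ± 4.68 CPM, and GATA6, an endoderm and bladder relative, from 0.491 ± 0.171 to 60.8 ± 2.34 CPM. Over GATA2, GATA3 and GATA6, the share held by GATA3 of FPKM, which the authors normalised for gene length and depth, was 0 to 4.95% under the Vector label and 48.4 to 52.8% under the LINC00665 label.

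Because GATA3 is also a T cell factor, T cell markers were read beside it. CD3D, CD3G and CD2 had 0 counts in all 6 libraries, PTPRC had 1 count under the Vector label and 0 under the LINC00665 label, and CD3E had 0 and 3. The 10 markers summed to 0.722 to 1.68 CPM under the Vector label and 22.3 to 24.8 CPM under the LINC00665 label. IL7R alone, at 22.3 ± 1.11 CPM under the LINC00665 label, was the 1 gene called higher of the 2 tested, and CD8A was not called (adjusted p = 0.34, edgeR). IL7R passed the filter through the LINC00665 label alone and could differ only upwards.

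PPARG (ENSG00000132170, chr3:12287368-12434356, plus strand), the fatty acid receptor that pairs with RXR and drives both urothelial and fat cell differentiation, was low but present under the Vector label. It had 2.33, 1.89 and 1.29 CPM there (50, 34 and 25 counts) and 139, 146 and 105 CPM under the LINC00665 label. No library of the former came near the lowest of the latter. The log2 fold change was 6.13 (edgeR SE 0.27 and adjusted p = 6.2e-07). Its relatives were not called. PPARD was at 40.7 ± 5.09 and 39.0 ± 2.57 CPM (-0.06 in log2, SE 0.15 and adjusted p = 0.76), and PPARA at 44.4 ± 31.6 and 22.2 ± 3.93 CPM (adjusted p = 0.091). PPARA passed at an adjusted p of 0.0049, as lower, without the library labelled Vector 3, and at 0.05 with DESeq2. Of the partners, RXRA rose from 38.4 ± 6.83 to 130 ± 13.8 CPM (1.76 in log2, adjusted p = 5.7e-05, edgeR), RXRB was at 32.3 ± 3.16 and 33.5 ± 2.37 CPM (adjusted p = 0.78), and RXRG had 0 counts in all libraries. Within the PPAR family, PPARG made up 4.39 to 10.2% of FPKM under the Vector label and 80.2 to 85.6% under the LINC00665 label.

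Genes known as PPAR targets were called higher at a share near that of all tested genes (34.2%). Of 18, 15 were tested, 6 were higher, 1 was lower and 8 did not pass, with a median log2 fold change of 0.21 beside 0.03 over all genes. Of the 6, 4 passed the filter through the LINC00665 label alone, and of the 11 that passed under each label 2 were higher, with a median of 0.05. PLIN2, the lipid droplet coat protein, rose from 0.519 ± 0.147 to 1030 ± 310 CPM and PDK4, a brake on pyruvate oxidation, from 1.82 ± 0.817 to 43.8 ± 4.61 CPM. LPL, the lipoprotein lipase, had 1 count under the Vector label and 67.5 ± 11.9 CPM under the LINC00665 label (ratio 3960, counting interval 711 to 157000). FABP4, a fatty acid carrier of fat cells and urothelium, had 2 counts and 5.49 ± 2.26 CPM (ratio 162, 44.4 to 1340). The gene called lower was the mitochondrial carnitine carrier SLC25A20, at 34.1 ± 14.2 and 17.4 ± 1.73 CPM (-0.97 in log2, edgeR SE 0.28 and adjusted p = 0.015), which was named after its value was seen. Its call was lost without the library labelled LINC00665 1 (adjusted p = 0.058). Most of the oxidation genes of the list, such as HADHA (named after its value was seen) at 292 ± 32.1 and 292 ± 20.6 CPM, did not pass the test. Of the 8 fat cell markers, which summed to 1.07 to 1.39 CPM under the Vector label and 20.7 to 25.3 under the LINC00665 label, LIPE and FABP4 were the 2 tested and both were higher. Both passed the filter through the LINC00665 label alone and could differ only upwards. LEP had 0 counts in all libraries and ADIPOQ 1 count under the Vector label and 0 under the LINC00665 label.

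FOXA1 (ENSG00000129514, chr14:37589984-37596059, minus strand), a pioneer factor that opens chromatin in luminal cells, had a smaller fold change than GATA3 and PPARG. It had 1.4, 1.61 and 2.43 CPM under the Vector label and 22.4, 17.7 and 20.5 CPM under the LINC00665 label. The groups did not overlap, and the log2 fold change was 3.47 (edgeR SE 0.26 and adjusted p = 1e-05). FOXA2, an endoderm relative, rose from 8.29 ± 1.94 to 27.3 ± 6.25 CPM (1.72 in log2, SE 0.24 and adjusted p = 0.0004 by edgeR). On the FPKM scale FOXA2 made up 85.8 to 87.2% of the FOXA family under the Vector label and 54.5 to 71.6% under the LINC00665 label, and FOXA1 12.0 to 14.2% and 27.2 to 42.5%. Whether reads were counted by strand is not given in the sources used here, and FOXA1 shares 16 of its 3982 exonic bases with TTC6 on the opposite strand.

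The grainyhead-like factors control epithelial barrier and junction genes, and they divided into 1 gene present under both labels and 2 at 0 counts under the Vector label. GRHL1 (ENSG00000134317, chr2:9951693-10002277, plus strand), a regulator of desmosomal cadherins, had 1.72, 2.72 and 3.93 CPM under the Vector label and 24.1, 22.5 and 22.4 CPM under the LINC00665 label. The latter group was narrow, with a coefficient of variation of 4.2%, and the log2 fold change was 3.05 (edgeR SE 0.29 and adjusted p = 4.2e-05). GRHL2 (ENSG00000083307, chr8:101492432-101669726, plus strand), the main activator of CDH1 and claudin genes, had 0 counts in all 3 libraries labelled Vector and 1782, 1412 and 1379 counts under the LINC00665 label. That is 82.9, 74.2 and 74.2 CPM, a rise of at least 1520-fold against a floor of 3 counts over the 3 Vector libraries (edgeR adjusted p = 8.8e-07). GRHL3 (ENSG00000158055, chr1:24319322-24364482, plus strand), a factor of the superficial urothelial barrier and the epidermis, also had 0 counts under the Vector label. It had 104, 150 and 104 counts in the other group, 4.84, 7.88 and 5.6 CPM, which was at least 119-fold higher (edgeR adjusted p = 4.7e-05). GRHL2 shares 50 of its 6060 exonic bases with an antisense gene.

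As a family, GRHL1 to GRHL3 summed to 0.62 to 1.45 FPKM under the Vector label, all of it GRHL1, and to 23.9 to 27.6 FPKM under the LINC00665 label. In the latter, GRHL2 held 60.1 to 67.2%, GRHL1 27.0 to 31.4% and GRHL3 5.87 to 11.1%. The more distant CP2 branch of the same superfamily moved in both directions. TFCP2L1, a stem cell and kidney duct factor, rose from 1.38 ± 0.258 to 14.4 ± 4.7 CPM (3.38 in log2, SE 0.32). TFCP2 fell from 58.1 ± 2.24 to 34.4 ± 2.48 CPM (-0.76, edgeR SE 0.14 and adjusted p = 0.0014) and UBP1 from 92.2 ± 24.7 to 56.2 ± 5.93 CPM (-0.71, SE 0.22 and adjusted p = 0.019). The UBP1 call was lost without the library labelled Vector 1 (adjusted p = 0.06) or LINC00665 2 (0.07).

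Junction and barrier genes linked to grainyhead factors were mostly higher. Of 24, all 24 were tested, 20 were higher, 0 were lower and 4 did not pass, with a median log2 fold change of 6.86. Of the 20, 14 would not have passed the filter under the Vector label alone. Of the 10 junction genes that passed under each label 6 were higher, with a median of 1.44, beside 26.9% of all such genes. CDH1, the epithelial cadherin, rose from 0.377 ± 0.203 to 266 ± 15.9 CPM, the tight junction gene CLDN7 from 0.106 ± 0.06 to 213 ± 19.8 CPM, and ST14, the matriptase protease, from 0.119 ± 0.0601 to 214 ± 34.4 CPM. LAD1, a filament protein of the basement membrane zone, had 2 counts under the Vector label and 118 ± 12.5 CPM under the LINC00665 label (ratio 3460, counting interval 957 to 28500). The 4 that did not pass, named after their values were seen, were MARVELD2 and the desmosome genes DSP, DSC2 and DSG2. DSP was at 116 ± 4.31 and 136 ± 9.75 CPM (adjusted p = 0.15, edgeR). Other desmosome genes, of the basal list and also named after their values were seen, were near 0 under the Vector label: PKP1 had 1 count against 4154, DSG3 2 against 1398 and DSC3 4 against 1159.

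ELF3 (ENSG00000163435, chr1:202007945-202017188, plus strand), an epithelium-specific ETS factor of the luminal programme, was the most abundant of the 10 per length under both labels. It had 11.5, 14 and 12.8 CPM under the Vector label and 407, 491 and 307 CPM under the LINC00665 label, with a log2 fold change of 4.97 (edgeR SE 0.23 and adjusted p = 8.1e-07). The Vector values lay close together and the LINC00665 values were more spread, with coefficients of variation of 10.1% and 23.0%. ELF3 shares 664 of its 7191 exonic bases with ELF3-AS1 on the opposite strand, so its value may include antisense reads. Its closest relative EHF, also epithelium-specific, had 14 counts in all under the Vector label (0.232 ± 0.11 CPM) and 457 ± 29.1 CPM under the LINC00665 label, a log2 fold change of 10.87 (edgeR SE 0.29 and adjusted p = 1e-07). EHF thus made up 0.35 to 1.23% of the FPKM of ELF3, EHF and ELF5 under the Vector label and 29.4 to 42.2% under the LINC00665 label. The broadly expressed relatives had smaller fold changes: ELF4 rose from 67.6 ± 7.08 to 244 ± 16 CPM, ELF1 from 27.7 ± 2.0 to 43.8 ± 0.852 CPM, and ELF2 did not pass (25.9 ± 3.91 and 24.1 ± 1.72 CPM, adjusted p = 0.61, edgeR).

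OVOL1 (ENSG00000172818, chr11:65787022-65797219, plus strand), a zinc finger repressor that holds the epithelial state, had 0, 3 and 0 counts under the Vector label. It had 2392, 2921 and 1914 counts under the LINC00665 label, or 111, 153 and 103 CPM. All 3 Vector counts came from 1 library, and the ratio was 2400 with a counting interval of 820 to 11600. EdgeR gave a log2 fold change of 11.06 (SE 0.53 and adjusted p = 9.9e-07). OVOL1 shares 1044 of its 3849 exonic bases with an antisense gene, so its value may include antisense reads. OVOL2, its partner in repressing ZEB1, rose from 4 counts (0.0673 ± 0.0797 CPM) to 11.8 ± 0.851 CPM (7.31 in log2, edgeR SE 0.47 and adjusted p = 4.8e-06), and OVOL3 was not tested. Under the LINC00665 label OVOL1 held 81.2 to 87.5% of the family's FPKM.

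KLF5 (ENSG00000102554, chr13:73054976-73077542, plus strand), a Krüppel-like factor of proliferating basal and luminal cells, had 8.9, 7.11 and 12.3 CPM under the Vector label and 389, 401 and 391 CPM under the LINC00665 label. The libraries labelled LINC00665 agreed closely, with a coefficient of variation of 1.69%, the smallest of the 10. Its log2 fold change was 5.38 (edgeR SE 0.24 and adjusted p = 6.5e-07). KLF4, a differentiation factor of superficial layers, rose from 3.04 ± 0.773 to 146 ± 27.7 CPM (5.59, SE 0.26), and KLF3 from 60.3 ± 11.7 to 139 ± 4.83 CPM. KLF2 was called higher at 3.16 ± 1.77 and 9.16 ± 2.81 CPM, a call lost without the library labelled LINC00665 2 (adjusted p = 0.053, edgeR). KLF6, a broadly expressed relative, was at 217 ± 71.0 and 165 ± 12.2 CPM (adjusted p = 0.18), and it passed as lower without the library labelled Vector 2 (adjusted p = 0.0071). Among these 5 genes KLF6 held 66.2 to 77.9% of FPKM under the Vector label and KLF5 4.39 to 4.42%, while under the LINC00665 label KLF5 held 46.5 to 50.2% and KLF6 12.7 to 15.8%.

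**Figure D2:**
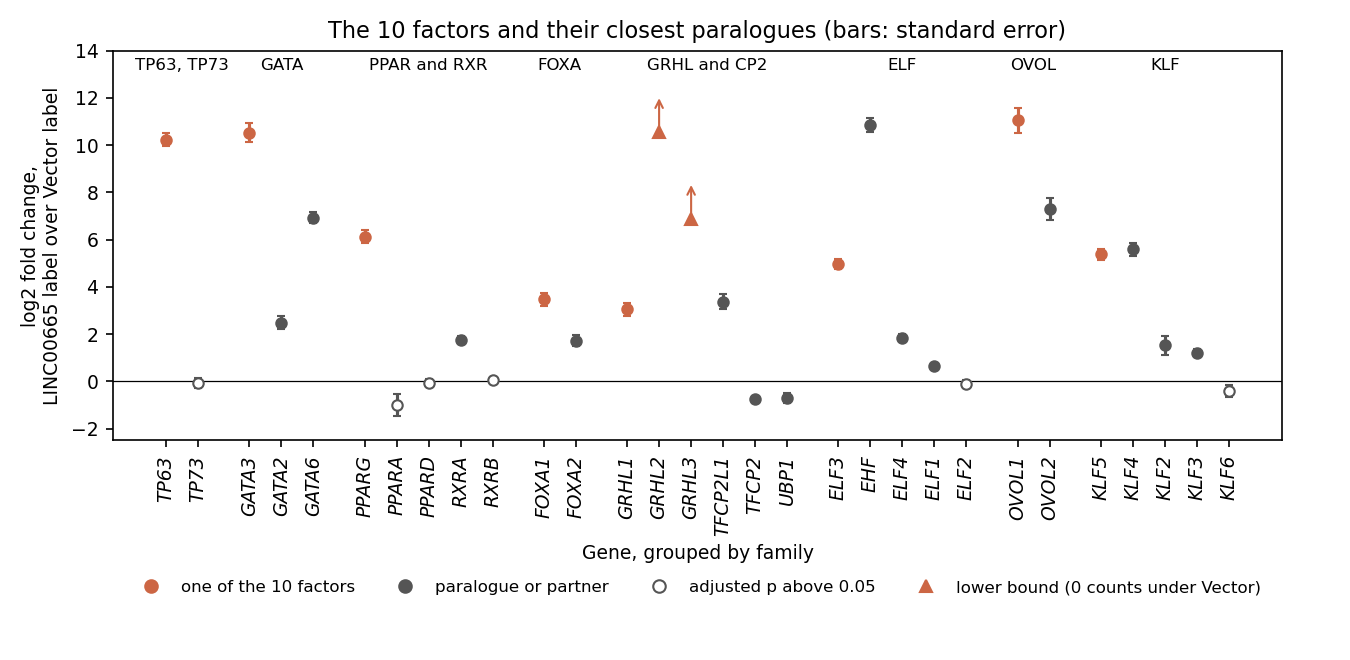
Log2 fold change of the 10 factors and of most of their tested paralogues and partners, LINC00665 label over Vector label, by family, with bars of 1 standard error. GRHL2 and GRHL3 are drawn as lower bounds, and open circles mark genes such as TP73, PPARD and RXRB with an adjusted p above 0.05.

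Over all 26 paralogues and partners, 21 were tested, 13 were higher, 2 were lower and 6 did not pass. Their median log2 fold change was 1.53, between that of the 10 factors and the 0.03 of all genes. Of all tested genes, 34.2% were higher and 29.3% lower. Of the 13, 3 passed the filter through the LINC00665 label alone. Of the 18 that passed under each label 10 were higher and 2 lower, with a median of 0.93. Among all such genes 26.9% were higher. TP73, PPARD and KLF6, each present under both labels, did not pass the test, while their relatives TP63, PPARG and KLF5 rose. Of the 5 not tested, RXRG was at 0 counts throughout, ELF5 and OVOL3 had 0 counts under the Vector label and 3 and 2 under the LINC00665 label, and FOXA3 and SPDEF had 40 and 39 counts under the LINC00665 label.

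Levels of different genes can be compared only per length, on the deposited FPKM scale. Under the LINC00665 label ELF3 was highest with 125 to 188 FPKM (mean 158), followed by KLF5 with 113 to 118 and PPARG with 58.2 to 76.1 FPKM. OVOL1 (33.7 to 47.6 FPKM), GATA3 (27.3 to 35.3) and TP63 (21.8 to 29) came next, where OVOL1 overlapped GATA3 and GATA3 overlapped TP63. GRHL2 (14.8 to 18.4 FPKM), GRHL1 (6.46 to 8.67), FOXA1 (4.63 to 6.03) and GRHL3 (1.61 to 2.66) did not overlap their neighbours. Under the Vector label ELF3 (4.83 to 5.7 FPKM) and KLF5 (2.21 to 4.1) again led, PPARG (0.73 to 1.73), GRHL1 (0.62 to 1.45) and FOXA1 (0.43 to 0.73) overlapped in turn, and the other 5 lay between 0 and 0.09 FPKM.

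**Figure D3:**
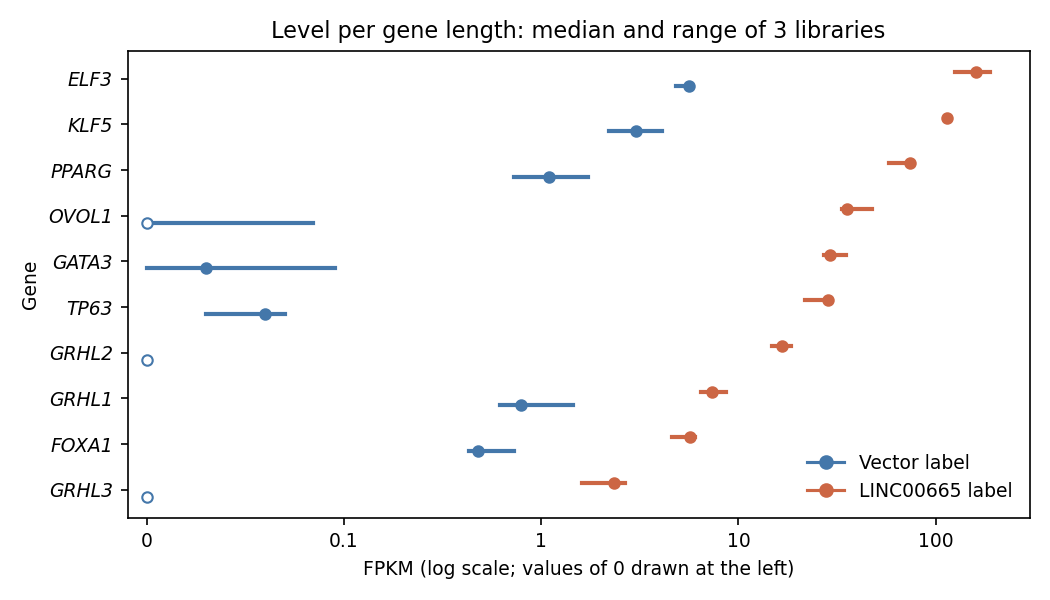
FPKM of the 10 factors (log axis, values of 0 drawn at the left edge), as the median and range of 3 libraries per label. ELF3, KLF5 and PPARG are the highest 3 under each label, and GRHL3 is last under the LINC00665 label.

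Placed among all genes of the table, ELF3 rose from the 58.3 to 60.7 percentile of FPKM to the 97.0 to 98.0, and KLF5 from 50.7 to 57.0 to 96.4 to 96.8. PPARG lay at 44.9 to 49.1 and at 92.8 to 94.7. GRHL3 stayed low even under the LINC00665 label, at the 44.6 to 50.0 percentile, and FOXA1 reached only 56.7 to 59.4. Within the LINC00665 label the coefficient of variation of CPM ran from 1.69% (KLF5) to 25.9% (GRHL3), around the 10.4% median of all genes above 1 CPM. The median of all genes was 19.1% under the Vector label, whose libraries were more variable.

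The genes most like each factor over the 6 libraries were found by the distance between centred log2(CPM + 0.5) profiles, among 11054 genes. The profiles share the 1 difference between labels, so a small distance means mostly a like size of that difference on this scale. The added 0.5 CPM shrinks the difference of genes near 0 under a label. ELF3 and its neighbour CSTA, for example, had edgeR log2 fold changes of 4.97 and 9.36. For TP63 these were MYH14 and CAPG, for GATA3 PDLIM4 and MISP, for PPARG PHACTR3 and RASGRF1, and for FOXA1 POLR2J3 and JAG1. GRHL1 lay nearest SPHK1 and SLC27A3, GRHL2 nearest PKP1 and MISP, and GRHL3 nearest NR4A1 and DNAH11. ELF3 lay nearest SYN3 and CSTA, OVOL1 nearest PRSS8 and MMP14, and KLF5 nearest PALM2AKAP2 and PTK6. The smallest distance was 0.18 log2 units (GATA3 and PDLIM4), and between 59 (OVOL1) and 282 (ELF3) genes lay within 1 log2 unit.

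Other epithelial transcription factors were also mostly higher. Of 24, 23 were tested, 19 were higher, 1 was lower and 3 did not pass, with a median log2 fold change of 3.33. Of the 19, 7 passed the filter through the LINC00665 label alone, and of the 16 that passed under each label 12 were higher, with a median of 1.91. Among all genes, 34.2% of those tested and 26.9% of those that passed under each label were higher. TBX3, a T-box repressor, rose from 0.693 ± 0.306 to 111 ± 14.4 CPM. VDR, the vitamin D receptor, rose from 2.94 ± 0.2 to 85.0 ± 5.61 CPM, and the homeobox gene BARX2 had 3 counts against 44.6 ± 5.74 CPM (ratio 872, counting interval 298 to 4230). DLX5 and CDX2 had 0 counts under the Vector label and were at least 434-fold and 219-fold higher, and ZNF750 had 0 and 16 counts and was not tested. The 1 gene called lower, BNC1, a basal keratinocyte factor named after its value was seen, fell from 48.3 ± 12.8 to 1.98 ± 0.263 CPM (-4.60 in log2, edgeR SE 0.26 and adjusted p = 2.1e-06).

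Structural genes of the basal layer, the setting of TP63, gave 23 higher and 1 lower of 24 tested, with a median log2 fold change of 7.82, or 7.50 with the gene at 0 counts set to its bound. Of the 23, 14 would not have passed the filter under the Vector label alone. Of the 10 basal genes that passed under each label 9 were higher and 1 lower, with a median of 2.98. Among all such genes 26.9% were higher. KRT17 and KRT6A, keratins of activated basal cells, rose from 0.203 ± 0.0421 to 929 ± 222 CPM and from 0.204 ± 0.0485 to 516 ± 33.1 CPM. CDH3, the basal cadherin, rose from 0.483 ± 0.12 to 433 ± 31.9 CPM and S100A2, a TP63 target, from 2.11 ± 0.0118 to 347 ± 56.7 CPM. KRT14, the keratin of the deepest basal cells, had 0 counts under the Vector label but only 3.74 ± 1.62 CPM under the LINC00665 label (a bound of at least 72.9-fold). The gene called lower was DST, a hemidesmosome linker, at 47.3 ± 7.92 and 22.3 ± 1.58 CPM (-1.09 in log2, edgeR SE 0.17 and adjusted p = 0.00071), named after its value was seen.

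Luminal urothelial genes, the setting of PPARG, GATA3, FOXA1 and ELF3, gave 14 higher, 0 lower and 3 that did not pass of 17 tested, with a median log2 fold change of 5.51. Of the 14, 8 passed the filter through the LINC00665 label alone, and of the 9 genes that passed under each label 6 were higher, with a median of 1.27. The shares called higher among all genes were 34.2% of those tested and 26.9% of those that passed under each label. KRT19 and KRT7, keratins of simple and transitional epithelia, rose from 1.08 ± 0.326 to 2810 ± 387 CPM and from 5.29 ± 2.41 to 2380 ± 122 CPM. VGLL1, a TEAD cofactor, had 1 count against 30.7 ± 2.92 CPM (ratio 1800, counting interval 322 to 70900). TMPRSS2 had 0 counts against 78.4 ± 16.4 CPM (a bound of at least 1550-fold) and the choline transporter SLC44A4 0 counts against 10.0 ± 1.6 CPM (at least 198-fold). KRT20, the keratin of umbrella cells, and SNX31, a luminal marker gene, had 0 counts in all 6 libraries, and UPK3A had 0 counts against 30. UPK1A, a uroplakin left untested for low counts and named after its value was seen, went the other way, with 33 counts under the Vector label against 2 (16.6-fold lower, counting interval 4.24 to 143). KRT18, XBP1 and ERBB2 were the 3 that did not pass, named after their values were seen, with adjusted p of 0.10, 0.32 and 0.41 (edgeR). KRT18, a simple keratin, was abundant under both labels, at 1000 ± 740 and 1890 ± 194 CPM, and KRT18, XBP1 and ERBB2 each passed without the library labelled Vector 3 (adjusted p of 0.00017, 0.0035 and 0.031), the first 2 as higher and ERBB2 as lower. KRT18 also passed as higher with DESeq2 (0.94 in log2, adjusted p = 0.047) and with the replicate block (1.17, adjusted p = 0.049).

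**Figure D4:**
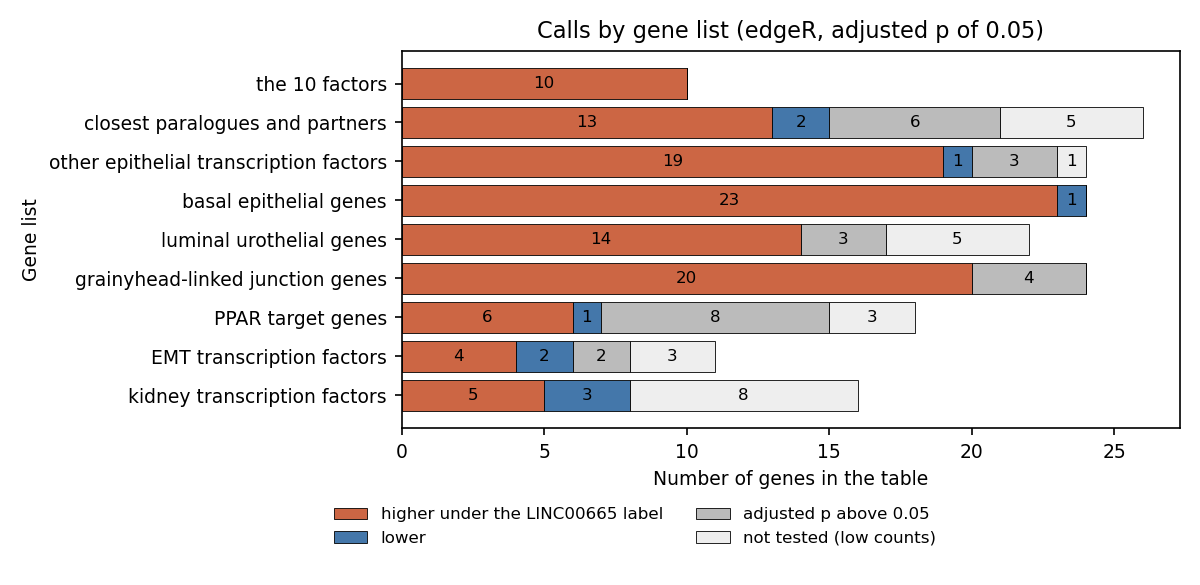
Number of genes per list called higher or lower by edgeR (adjusted p of 0.05), not called, or not tested for low counts. Among tested genes, calls of higher make up 10 of 10 factors, 23 of 24 basal, 20 of 24 junction and 6 of 15 PPAR target genes. The share over all tested genes was 34.2%. Of those calls, 5 factors, 14 basal, 14 junction and 4 PPAR target genes passed the filter through the LINC00665 label alone.

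Transcription factors of epithelial-mesenchymal transition (EMT), several of which repress or are repressed by the 10, moved in both directions. Of 11, 8 were tested, 4 were higher, 2 were lower and 2 did not pass, beside 34.2% higher and 29.3% lower of all tested genes. Of the 4, 3 (SNAI2, SNAI3 and TWIST1) passed the filter through the LINC00665 label alone and could differ only upwards. The 2 lower, ZEB1 and FOXC2, passed it through the Vector label alone and could differ only downwards. Of the 3 genes that passed under each label 1 was higher and 0 were lower, with a median log2 fold change of -0.8. ZEB1, the direct repressor of CDH1 and GRHL2 and a target of OVOL repression, fell from 15.6 ± 3.99 to 0.0665 ± 0.023 CPM (-7.72 in log2, edgeR SE 0.41 and adjusted p = 1.6e-06), and FOXC2 from 4.4 ± 1.05 to 0.104 ± 0.0575 CPM (-5.34, SE 0.46). Against this, SNAI2, a factor of both EMT and basal epithelium, rose from 0.107 ± 0.0931 to 164 ± 12.1 CPM and SNAI1 from 0.832 ± 0.0548 to 47.3 ± 17.2 CPM. SNAI3 rose from 0.521 ± 0.367 to 4.64 ± 1.46 CPM, and TWIST1, a mesoderm factor, from 0 counts to 14.2 ± 1.17 CPM (at least 277-fold). TCF4 and ZEB2 were not called, with adjusted p of 0.073 and 0.21, and both passed as lower without the library labelled Vector 3 (0.019 and 0.018). TWIST2 and GSC had 0 counts in all libraries, and PRRX1 had 0 and 10.

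Kidney lineage factors included 3 genes that moved against the 10. Of 16, 8 were tested, 5 were higher and 3 were lower, beside 34.2% higher and 29.3% lower of all tested genes. Of the 5, 4 passed the filter through the LINC00665 label alone and could differ only upwards. PAX2 and another gene called lower passed it through the Vector label alone and could differ only downwards. Of the 2 genes that passed under each label 1 was higher and 1 lower. PAX8, which builds and keeps renal tubule cells, fell from 262 ± 63.6 to 14.7 ± 0.695 CPM (-4.15 in log2, edgeR SE 0.21 and adjusted p = 1.4e-06). PAX2, a factor of the nephric lineage, fell from 32.1 ± 10.8 to 0.062 ± 0.107 CPM (-8.77 in log2, SE 0.64 and adjusted p = 9e-06). LHX1 rose from 0.337 ± 0.336 to 18.5 ± 1.37 CPM, WT1 from 5.14 ± 0.601 to 12.6 ± 1.01 CPM, and SIX2 from 0 counts to 13.4 ± 1.8 CPM (at least 261-fold). ESRRG and EYA1 were called higher at levels near 1 CPM. Of the 8 not tested, ESRRB had 40 counts under the Vector label and 4 under the LINC00665 label. The labelled cell type is bladder cancer cells. In the libraries labelled Vector, TP63, GATA3, GRHL2, GRHL3 and OVOL1 were at 0 to 3 counts per library. KRT19 and KRT7 were at 1.08 ± 0.326 and 5.29 ± 2.41 CPM there, and PAX8 and PAX2 at the levels above. These values were not compared with a reference profile of the line, and their cause was not tested.

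**Figure D5:**
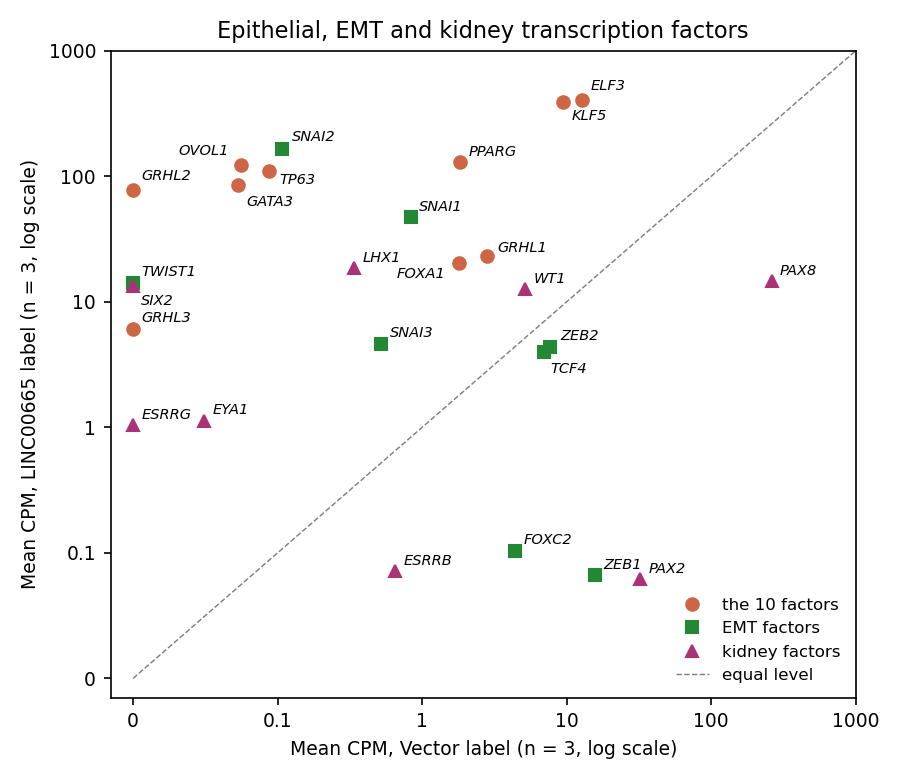
Mean CPM under the Vector label (horizontal, log axis) and the LINC00665 label (vertical, log axis), n = 3 each, for the 10 factors, EMT factors and most kidney factors with at least 30 counts over the 6 libraries, with means of 0 drawn at the axis edge. The 10 factors lie above the line of equal level, and PAX8, PAX2, ZEB1 and FOXC2 lie below it.

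Some markers of other cell types, the T cell and fat cell markers above included, were also higher under the LINC00665 label, and their part in these results was not tested. Among all tested genes 34.2% were called higher. The 10 fibroblast markers summed to 2.07 to 4.1 CPM under the Vector label and 245 to 273 CPM under the LINC00665 label, mostly THY1 (165 ± 12.2 CPM) and COL1A1 (71.3 ± 5.23 CPM). Of the 6 fibroblast markers tested, 5 were higher, 4 of them having passed the filter through the LINC00665 label alone, while DCN had 0 and 19 counts and LUM 9 and 10. The 8 endothelial markers summed to 0.28 to 1.14 and 11.8 to 13.5 CPM, with 3 of 3 tested higher, all 3 having passed the filter in that way, and EMCN was at 0 counts throughout. The 9 epidermal cornified markers in the table summed to 8.25 to 8.85 and 40.0 to 86.7 CPM, with 5 of 5 tested higher, 4 of them having passed in that way, led by SPRR2A at 34.5 ± 21.9 CPM under the LINC00665 label. KRT1 and SPRR1A had 0 counts in all 6 libraries.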

How the data were processed

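RNA-seq was measured in 6 libraries, 3 per label. Per the file headers, the authors' table gives each gene an expected count and an FPKM value, normalised for gene length and depth, in each library. HISAT2 2.0.4 and hg38 are named, with no role, per the submitters' processing notes. Which tool counted reads, and whether by strand, is not given in the sources used here. Coordinates are from GENCODE 29 (GRCh38), in which 20171 identifiers were found, and 583 genes had no symbol. Upstream sequences are from RefSeq (GRCh38.p14).

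Expected counts, 88.3 to 89.4% of them whole in the file, were rounded, filtered with filterByExpr (minimum count 10, about 0.511 CPM) and scaled by TMM. They were tested with edgeR 4.0.16 (glmQLFit, glmQLFTest) in R 4.3.3, with no covariate, and Benjamini-Hochberg adjustment over 13552 genes with a threshold of 0.05. A group at 0 counts gives a lower bound against 3 counts over the group, and ratios carry exact 95% binomial intervals, both for counting error only. On simulated counts of these 13552 genes, the test found 46% of 2-fold and 90% of 4-fold changes, and 10.5% of its calls were false. Whether these shares hold for the measured counts, where 63.5% of tested genes were called, was not tested.

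The 10 genes, the 8 further gene lists and the 5 marker lists were chosen with earlier results of these data known. Named genes were the 10, any gene of the paralogue, EMT and kidney lists, the 4 tested genes of smallest p in other lists and genes at 0 counts in a group. The 2 nearest profiles needed a mean of 5 CPM. Other names were chosen after their values were seen and are marked or given as context. Libraries of 1 label differed beyond sampling noise (chi-square per degree of freedom 9.85 to 116), so none was counted as a duplicate. Alternatives were other scalings, filters, DESeq2 1.42.0, limma 3.58.1 on log2 FPKM with pseudocounts of 1 and 0.1, a replicate block and leaving out each library. The 22 genes of the check for mixed-up samples stayed in the model but have no values printed here. Some genes that the naming rule gives are counted in their lists but not reported here. Figures were drawn with matplotlib 3.10.9.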

Additional observations from a re-analysis of the deposited data

How the results depend on the processing

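All 10 factors kept their direction and their side of the threshold in each of the 14 alternative settings in which they were tested (135 values), with a highest adjusted p of 0.0012 (GRHL3). Of 1898 values of other listed genes, 1858 did. Requiring a mean of 1 CPM in both groups left 5 of the 10 factors in the test, all 5 higher. Under that filter the counts of higher genes were 12 other epithelial factors, 9 basal, 5 luminal, 7 junction, 2 PPAR target, 0 EMT and 1 kidney gene, and of lower genes 0 EMT and 1 kidney gene, since fewer genes were tested. With no filter 1 luminal gene was lower. The number of lower PPAR target genes, 1 in the main test, was 3 with total-count scaling, 2 with DESeq2 and 2 with limma on log2 FPKM under either pseudocount; the cause was not tested. Leaving out 1 library gave 1 to 3 lower paralogues, 0 to 1 lower luminal genes, 0 to 2 lower PPAR targets and 2 to 4 lower EMT factors, and 4142 to 5033 higher and 3275 to 4225 lower genes in all. Without the library labelled Vector 3 there were 4 lower EMT factors, 2 lower PPAR targets and 1 lower luminal gene. Without LINC00665 1 there was no lower PPAR target, and without Vector 1 or LINC00665 2 there was 1 lower paralogue. Total-count scaling moved the median of all genes by -0.16 and limma on log2(FPKM + 0.1) by -0.11 on the log2 scale.

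Deviations of same-numbered libraries correlated at 0.152, -0.132 and -0.154, so the numbers do not pair the libraries. With the replicate number as a block all 10 factors were higher, with 4419 higher and 3505 lower genes in all against 4634 and 3977 without it. At this depth, 0 counts in a group limit GRHL2 and GRHL3 to lower bounds.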
